A study of Mus musculus with 6 samples.

Results

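Semaphorins, Slits and ephrins are guidance cues, and plexins, neuropilins, Robo proteins and Eph receptors are the receptors that read them. Semaphorins signal through plexins, with neuropilins as co-receptors for most of the secreted class 3 forms. Slits signal through Robo receptors, and membrane-bound ephrins signal through Eph receptors on the neighbouring cell. The cues were named for steering axons, and in blood vessels they are known for setting cell migration, vessel branching and the boundary between arteries and veins. The genes described here are the protein-coding rows of the deposited matrix whose symbol belongs to one of these families. The rule matched 56 of 21785 gene rows, 31 ligand genes (20 semaphorins, 3 Slits and 8 ephrins) and 25 receptor genes (9 plexins, 2 neuropilins, 3 Robo genes and 11 Eph receptors). Of 59 such coding symbols in the mm10 GENCODE M21 annotation, Epha6, Epha8 and Epha10 had no row. The choice used the presence of a row, for which a gene had to reach at least 3 in some library, and no value of the comparison between groups. All 56 passed the filter on low values used for testing (a mean of at least 1), and 52 had a mean of at least 50.

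Total RNA of cultured smooth muscle cells from pulmonary arteries (PASMCs) of C57BL/6 mice was sequenced. The 3 stimulated samples received BMP9 at 1 ng/mL together with BMP10 at 5 ng/mL for 6 h, and the 3 control samples received neither. Both proteins are circulating ligands of the bone morphogenetic protein branch of the TGF-beta family. All samples had first spent 48 h in medium free of supplements, and the stimulation also took place without them. The cells had grown out from minced lung pieces in which the arteries had been filled with iron particles and held back with a magnet, and the labels name no purification by a cell type marker and do not say which samples share an animal or a culture. P-values therefore measure only the spread between these samples, which may be technical.

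Levels are the authors' normalized read counts, which summed to between 30786695 and 31903795 in stimulated samples and between 27295973 and 28283597 in controls. All 8 smooth muscle markers were detected, with a summed level of 86056 to 184735 in stimulated samples and 35682 to 55323 in controls, and 4 of them rose. Markers of other cells were detected too. In stimulated samples the summed level ran from 134062 to 201539 for the 8 macrophage markers, from 9721 to 43726 for the 12 endothelial, from 2357 to 34041 for the 8 epithelial, from 295 to 2734 for the 5 mesothelial, from 28884 to 30748 for the 8 fibroblast and from 6501 to 6994 for the 7 Schwann and neural markers. In controls these sums ran from 90005 to 154701, from 12354 to 46574, from 6155 to 32812, from 816 to 3160, from 36076 to 45217 and from 5338 to 6297. Of these lists, only Pdgfra among fibroblast markers fell and only Ncam1 among neural markers rose by the unblocked test described below. Of the smooth muscle markers, Des, Myh11, Smtn and Actg2 were not called (log2 changes -0.43, 0.41, 0.57 and 0.99). Single genes made up most of some sums. In stimulated replicate 1, Acta2 was 69094 of 86056 for smooth muscle and Lyz2 was 179899 of 201539 for macrophages. In stimulated replicate 2, Sftpc was 29469 of 34041 for epithelium. The sums therefore do not compare cell types. No listed marker stayed at 3 or less in all libraries. In bulk RNA, fewer cells of a type and less RNA per cell cannot be told apart, and the part of these cells in the results below was not tested.

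After stimulation, 5 semaphorin genes and the ephrin gene Efna4 fell, while the ephrin gene Efna3 and the receptor genes Plxna4 and Robo1 rose, and the receptor gene Plxna3 fell. In all, 3 of the 56 genes rose and 7 fell at an adjusted p under 0.05, from limma on log2(value + 1) with Benjamini-Hochberg adjustment over all 21743 genes tested. Of all genes tested, 13.4% passed this test (8.61% higher and 4.75% lower), against 17.9% of the guidance genes (5.4% higher and 12.5% lower). Guidance genes were better expressed than most, and among all genes with a mean of at least 50 the test called 20.0%, 13.4% higher and 6.6% lower. Among ligands 1 of 31 rose and 6 fell, and among receptors 2 of 25 rose and 1 fell. The median log2 change was -0.14 for ligands, -0.18 for receptors and -0.03 for all genes tested. With the replicate number as a block, the limma fit called 23 guidance genes (7 higher and 16 lower), 14 of them ligands and 9 receptors. That fit called 26.8% of all genes tested, 14.9% higher and 12.0% lower, against 41.1% of the guidance genes. Among all genes with a mean of at least 50 it called 39.8%, in total close to the share of the guidance genes. By direction these were 23.0% higher and 16.8% lower, against 12.5% higher and 28.6% lower for the guidance genes. Without stimulated replicate 3 the unblocked test called 5 guidance genes, and without control replicate 1 or control replicate 3 it called 6. Over the whole table these fits called 917, 1164 and 1163 genes, in that order. In these 3 fits 0 receptors were called, with 6, 9 and 8 of them at an unadjusted limma p under 0.05. With all libraries and no block, 3 of the 25 receptors were higher and 4 lower at that unadjusted p. Of all 21743 genes tested, 3370 were higher and 2877 lower there. The share of the receptors was thus not above that of all genes in the fit with all libraries. With equal library totals 13 guidance genes were called, 2 higher and 11 lower, and with upper-quartile factors 11, 2 higher and 9 lower. With equal totals, 3400 of all genes were called (1135 higher and 2265 lower), and with upper-quartile factors 2772 (1420 higher and 1352 lower). Genes called lower were 10.4% and 6.2% of all genes tested, in that order. These scalings moved the median log2 change of all genes to -0.20 and -0.11, so directions are relative to the scaling.

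**Figure D1:**
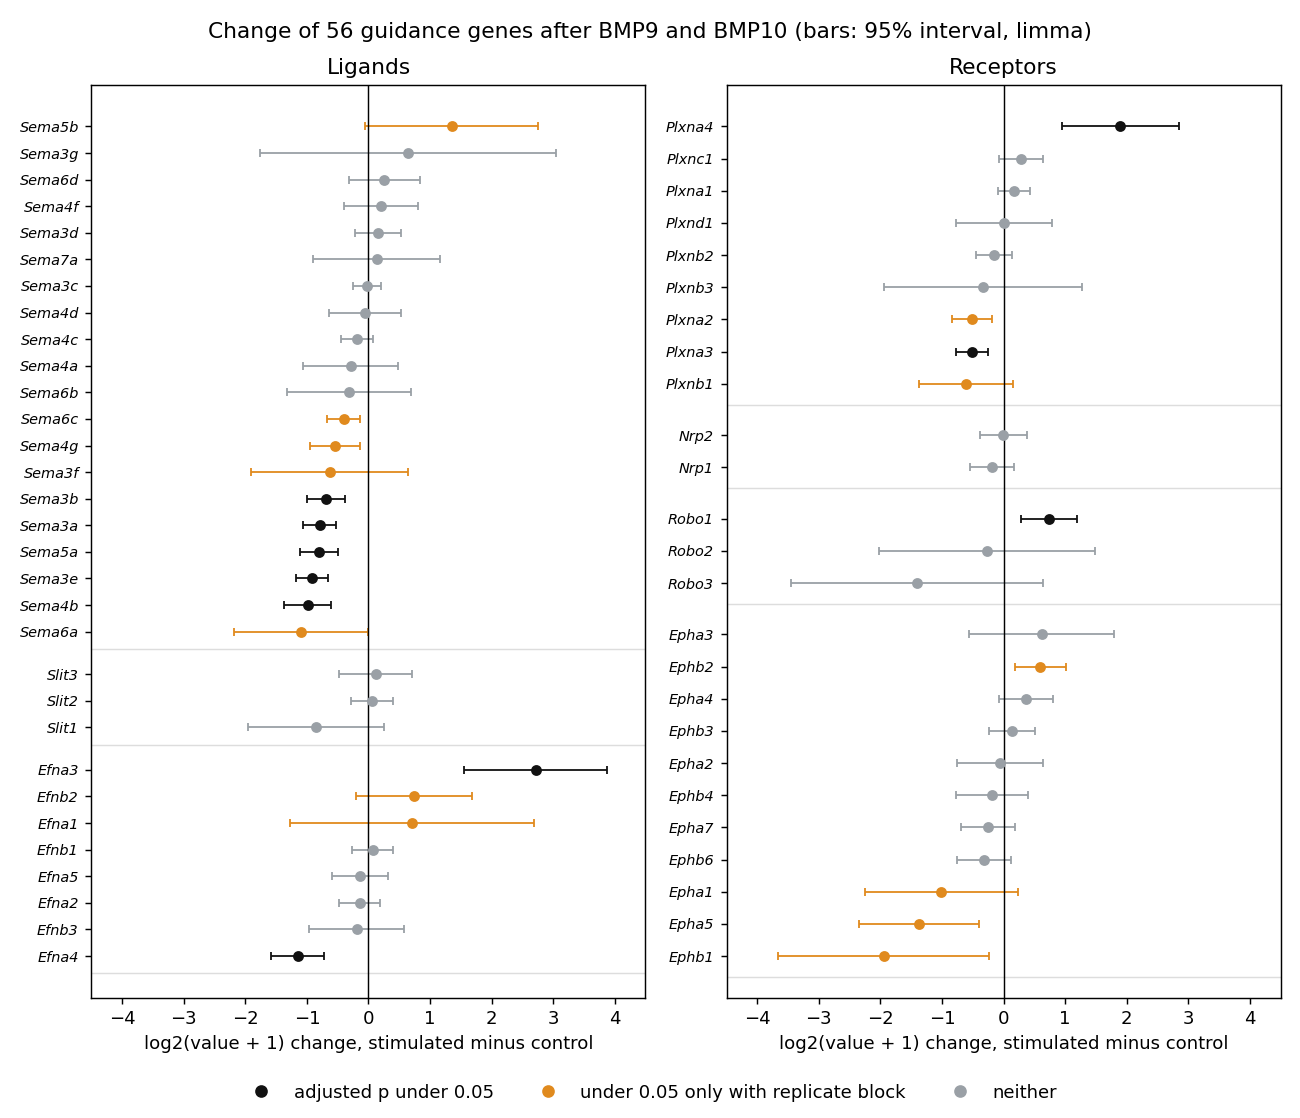
Change of each of the 56 guidance genes, stimulated minus control, on the log2(value + 1) scale (horizontal axis), with ligands in the left panel and receptors in the right panel, grouped by family. Points are the limma estimates from 3 stimulated and 3 control samples and bars are their 95% intervals. Black marks the 10 genes past the threshold, orange the 13 called with the replicate block and not without it and grey the other 33; the black semaphorins lie to the left of 0 and Efna3 lies farthest to the right.

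The ephrin-A genes, whose products are held on the cell surface by a lipid anchor, gave the largest rise and the largest fall among the 10 called genes. Efna3 had 403, 217 and 459 normalized reads in stimulated replicates 1, 2 and 3, against 70, 24 and 79 in control replicates 1, 2 and 3. Every stimulated library lay above every control, and replicate 2 was the lowest of each group. Its log2 change was 2.72 ± 0.49 (SE, limma adjusted p = 0.0148), and the call was lost without stimulated replicate 3 (adjusted p = 0.0797). Efna4 had 153, 117 and 146 in stimulated samples, against 345, 253 and 332 in controls. Here every stimulated library lay below every control, with a log2 change of -1.15 ± 0.18 (limma adjusted p = 0.00903). The call was kept without any single library, at its narrowest with a limma adjusted p of 0.0497. The groups did not overlap for 16 of the 56 guidance genes (28.6%), against 33.2% of all genes tested. In all 3 same-numbered pairs, 14 guidance genes were higher and 23 lower in the stimulated library (37 in 1 direction, 66.1%). Over all genes tested, 27.2% were higher and 28.2% lower in all 3 pairs (55.4% in 1 direction). Among genes with a mean of at least 50, the groups did not overlap for 43.2% and all 3 pairs had 1 direction for 69.3%, both above the shares of the guidance genes.

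Efna3 and Efna4 are neighbours on the minus strand of chromosome 3 in mm10. Efna3 spans 89313899 to 89322965 and Efna4 spans 89333390 to 89338028, with 10.4 kb between them and no tested coding gene in the gap. Levels per kilobase, here and below, use the union of all annotated exons of a gene as its length and depend on it. Per kilobase of exon, Efna3 was at 166, 89.2 and 189 in stimulated samples, above Efna4 at 95.7, 73.2 and 91.3. In controls Efna3 was at 28.8, 9.9 and 32.5 per kilobase, below Efna4 at 216, 158 and 208. The order of the pair was thus opposite in the groups, in each of the 3 libraries. Opposite-strand genes share 14.1% of the exon sequence of Efna3 and 10.5% of that of Efna4, so both levels are uncertain where counting ignored strand. The partner of Efna3, the antisense gene Gm15998, had 3, 2 and 6 reads in stimulated samples and 15, 16 and 25 in controls. That is under the level of Efna3 in every library, most narrowly in control replicate 2 (16 against 24). Gm15998 was called lower, opposite to Efna3 (log2 change -2.13, limma adjusted p = 0.024).

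The windows around the annotated starts of Efna3 and Efna4 are shown because these neighbours moved in opposite directions. The window of Robo1 is shown as that of the other gene that rose and had one. Sequences are from RefSeq (GRCm38.p6, the assembly of mm10), run from 250 bases before to 50 bases after a start, and are read on the strand of the gene. Capitals mark matches, on either strand, to the motifs searched. GGCGCC is a GC-rich sequence, the same on both strands, bound by BMP-activated SMAD proteins, and the related GGAGCC is a variant of it. The letters CAGACA hold the SMAD box, TGANTCA is bound by AP-1, and the CArG box is bound by SRF.
Efna3, first start, chr3:89322890-89323189, minus strand: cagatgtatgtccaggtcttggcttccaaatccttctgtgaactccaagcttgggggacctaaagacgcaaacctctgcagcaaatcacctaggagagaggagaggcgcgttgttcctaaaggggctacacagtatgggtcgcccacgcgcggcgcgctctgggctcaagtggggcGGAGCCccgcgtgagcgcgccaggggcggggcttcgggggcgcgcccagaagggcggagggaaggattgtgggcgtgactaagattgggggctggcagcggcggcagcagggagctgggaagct
Efna3, second start, chr3:89321719-89322018, minus strand: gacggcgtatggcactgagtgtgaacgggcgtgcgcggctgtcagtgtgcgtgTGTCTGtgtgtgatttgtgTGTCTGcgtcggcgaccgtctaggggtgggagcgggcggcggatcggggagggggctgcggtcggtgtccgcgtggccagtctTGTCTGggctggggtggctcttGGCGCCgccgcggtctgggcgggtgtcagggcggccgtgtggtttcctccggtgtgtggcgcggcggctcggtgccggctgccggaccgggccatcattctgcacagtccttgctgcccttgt
Efna4, chr3:89337979-89338278, minus strand: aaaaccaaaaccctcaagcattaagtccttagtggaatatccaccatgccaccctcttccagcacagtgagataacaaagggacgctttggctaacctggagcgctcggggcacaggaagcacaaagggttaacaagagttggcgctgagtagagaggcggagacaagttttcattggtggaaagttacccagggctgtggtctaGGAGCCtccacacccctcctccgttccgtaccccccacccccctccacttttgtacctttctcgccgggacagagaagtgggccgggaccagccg
Robo1, chr16:72662899-72663198, plus strand: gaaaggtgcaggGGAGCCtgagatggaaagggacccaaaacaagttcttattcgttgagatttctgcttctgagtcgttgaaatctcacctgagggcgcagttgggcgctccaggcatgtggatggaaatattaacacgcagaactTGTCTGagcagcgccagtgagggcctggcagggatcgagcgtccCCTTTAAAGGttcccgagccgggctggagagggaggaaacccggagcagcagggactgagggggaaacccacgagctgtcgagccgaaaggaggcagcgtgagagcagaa

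The second window of Efna3 held GGCGCC once and CAGACA 3 times, its first window held GGAGCC once, and the window of Efna4 held GGAGCC once. The second start of Efna3 lies 1197 bases inside the GENCODE gene, and the first lies 26 bases from the GENCODE start. The Robo1 window, which lies at a start 354843 bases inside the GENCODE gene, held GGAGCC once, a CArG box once and the letters CAGACA once. RefSeq windows were found for 49 of the 56 genes (65 windows), and for 8 of the 10 called genes. Of the guidance windows, 20.0% held GGCGCC, 53.8% GGAGCC, 24.6% CAGACA, 4.6% TGANTCA and 3.1% a CArG box. Of all 32851 windows in the table, 11.87% held GGCGCC, 30.85% GGAGCC, 21.04% CAGACA, 7.81% TGANTCA and 1.63% a CArG box. Guidance windows were also richer in G and C, with a median of 64.0% against 52.7% over all windows. Among the 6 genes that fell and had a window, GGCGCC was found in 1, GGAGCC in 4 and CAGACA in 0. Of all 49 guidance genes with a window, 13, 31 and 14 held these motifs in any window, in that order. The Sema3a window, counted among the genes that fell, lies at a start 271370 bases inside the GENCODE gene. A match describes these letters and does not show that a factor binds there.

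The other ephrins did not pass the unblocked test. Efna1, the third gene of the chromosome 3 cluster, had 214, 1701 and 568 in stimulated samples and 186, 925 and 273 in controls. It was highest in replicate 2 of each group, and the groups overlapped. Its log2 change of 0.71 ± 0.84 (limma adjusted p = 0.635) became 0.71 ± 0.17 with the replicate block (limma adjusted p = 0.0223). Efnb2, the transmembrane ephrin known as a marker of arteries, had 1861, 5947 and 3575 in stimulated samples and 1819, 2642 and 1766 in controls. Within same-numbered pairs its log2 change was 0.03, 1.17 and 1.02, so pair 1 showed almost none of it. It passed with the replicate block (limma adjusted p = 0.0398) and neither without it (0.274) nor with the block and equal library totals together (0.0575). Efnb1 and Efna5 had log2 changes of 0.07 ± 0.14 and -0.14 ± 0.19, with 95% intervals of ± 0.33 and ± 0.46 around them. Efna2 and Efnb3 passed neither fit, with log2 changes of -0.14 and -0.19.

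**Figure D2:**
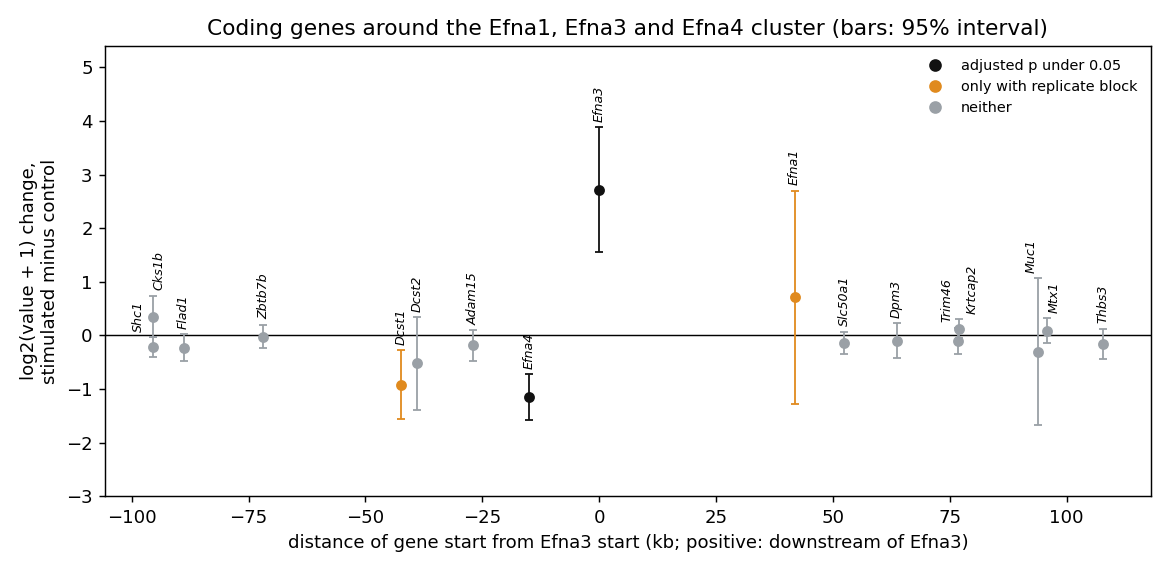
Log2(value + 1) change, stimulated minus control (vertical axis), of the tested coding genes within 100 kb of Efna3, against the distance of their start from the Efna3 start in kilobases (horizontal axis, positive downstream of Efna3). Points are limma estimates and bars 95% intervals (3 stimulated and 3 control samples). Efna3 and Efna4 (black) are past the threshold on opposite sides of 0, Efna1 and Dcst1 (orange) only with the replicate block, and the other coding genes (grey) in neither fit.

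**Figure D3:**
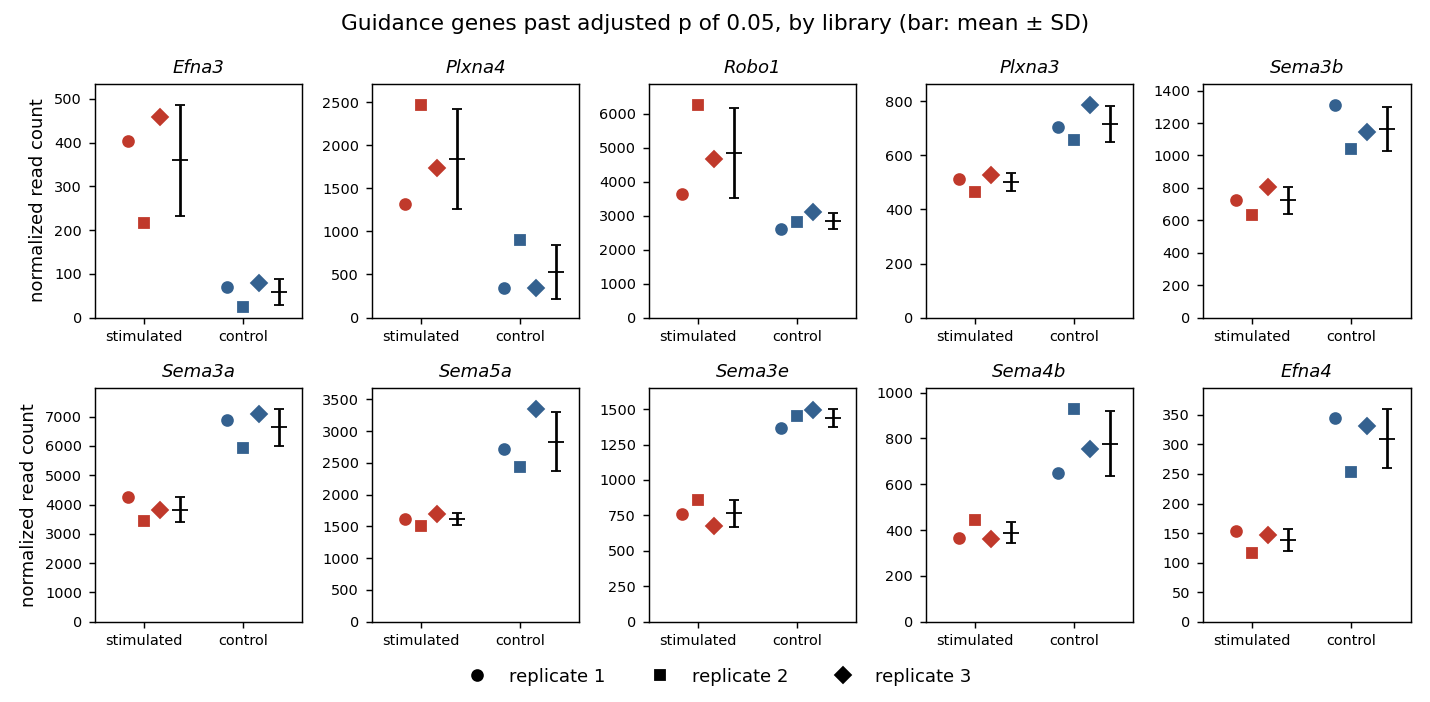
Normalized read count (vertical axis, from 0) of the 10 guidance genes past the threshold in each of the 3 stimulated libraries (red) and the 3 control libraries (blue). Symbols mark the replicate number and the black bar gives the mean ± SD (n = 3). In each of the 10 panels the stimulated and control libraries do not overlap.

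Of the 20 semaphorins 5 fell and 0 rose, with a median log2 change of -0.30, and 9 fell and 1 rose with the replicate block. Class 3 semaphorins are secreted and known mostly as repellents of axons and of endothelial cells. Of 7 genes in the class, 3 fell and 0 rose (0 rose also at an unadjusted limma p under 0.05). Sema3a, the repellent that binds neuropilin-1 and plexin-A receptors, had 4249, 3425 and 3817 in stimulated samples and 6898, 5924 and 7082 in controls. The log2 change was -0.79 ± 0.11 (limma adjusted p = 0.00633), and the highest stimulated library was well under the lowest control. Sema3e, which binds plexin-D1 without needing a neuropilin, had 763, 856 and 672 in stimulated samples and 1367, 1453 and 1490 in controls. It fell by 0.92 on the log2 scale (SE 0.11, limma adjusted p = 0.00376), the smallest adjusted p among the guidance genes in this test. Both calls were kept without any single library, with a limma adjusted p of at most 0.0429 for Sema3a and 0.0285 for Sema3e. In mm10, Sema3a lies at chr5:13125414-13602565, Sema3e at chr5:14025276-14256689 and Sema3b at chr9:107597674-107609229. Sema3b, also a neuropilin ligand, had 725, 635 and 807 in stimulated samples and 1312, 1040 and 1142 in controls. Its log2 change of -0.69 ± 0.13 (limma adjusted p = 0.0175) was not called without control replicate 1 (adjusted p = 0.0698) or control replicate 3 (0.0692).

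The other 4 class 3 genes were not called without the block. Sema3c, known for its part in the outflow tract of the heart, was the best expressed class 3 semaphorin per kilobase, at 1163 ± 60.6 in stimulated samples and 1184 ± 131 in controls (SD, n = 3). It had a log2 change of -0.02 ± 0.10 with a 95% interval of ± 0.23. Sema3d had a log2 change of 0.16 ± 0.16 (limma adjusted p = 0.561). Sema3f, the neuropilin-2 ligand, had 229, 733 and 359 in stimulated samples and 389, 1219 and 469 in controls, lower in all 3 same-numbered pairs but with overlapping groups. Its log2 change of -0.63 had an SE of 0.54 without the block (limma adjusted p = 0.502) and of 0.11 with it (0.00684). Sema3g, a semaphorin known from endothelium, had 149, 2406 and 764 in stimulated samples and 280, 1060 and 240 in controls, and passed neither fit. Of the summed class 3 level per kilobase, Sema3a made up 11.1 ± 2.31% in stimulated samples and 17.3 ± 1.76% in controls. Sema3c made up 46.4 ± 2.83% in stimulated samples and 42.6 ± 3.06% in controls (SD, n = 3).

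Among the 13 semaphorins of classes 4 to 7, which are bound to the membrane, 2 fell and 0 rose (0 rose also at an unadjusted limma p under 0.05). Sema4b had 364, 443 and 360 in stimulated samples and 649, 928 and 756 in controls, without overlap. It fell by 0.99 on the log2 scale (SE 0.16, limma adjusted p = 0.0101), a call lost without stimulated replicate 3 (0.0602). Sema5a, a transmembrane semaphorin with thrombospondin repeats, had 1624, 1509 and 1700 in stimulated samples and 2722, 2436 and 3345 in controls. The stimulated libraries lay close together and below all controls, with a log2 change of -0.80 ± 0.13 (limma adjusted p = 0.00928). It was called without any single library, with a limma adjusted p of at most 0.0466. Sema4b lies at chr7:80186841-80226527 and Sema5a at chr15:32244810-32696341. With the replicate block, Sema6a, a ligand of plexin-A2 and plexin-A4, also fell, with 135, 485 and 219 in stimulated samples and 413, 743 and 454 in controls (log2 change -1.09 ± 0.18, limma adjusted p = 0.00651, and 0.173 without the block). Without the block, Sema6a was called only without stimulated replicate 2 (0.0345) or both replicate 2 libraries (0.0485), among the alternatives run. Sema4g and Sema6c fell by 0.55 and 0.41 with the block, with adjusted p-values of 0.0388 and 0.0322 there and of 0.081 and 0.0641 without it. Without the block, Sema4g passed with equal library totals (limma adjusted p = 0.0332). Sema6c passed there too (0.0228), and with upper-quartile factors (0.0386) and a stricter filter on low values (0.0496). Sema5b, at 15, 30 and 15 in stimulated samples and 6, 16 and 3 in controls, was the only semaphorin called higher with the block (limma adjusted p = 0.0443), a call lost with equal library totals added (0.0593). Sema7a, a lipid-anchored semaphorin and the best expressed of these classes per kilobase, had a log2 change of 0.13 ± 0.43 and was highest in replicate 2 of both groups. Sema4a, Sema4c, Sema4d, Sema4f, Sema6b and Sema6d passed neither fit, with log2 changes between -0.32 (Sema6b) and 0.26 (Sema6d).

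Slit ligands, large secreted proteins known to repel axons and migrating cells, showed no called change (0 of 3, also at an unadjusted limma p under 0.05). Slit2 had 9513, 7236 and 9486 in stimulated samples and 8954, 7076 and 9152 in controls, and its log2 change of 0.06 had a 95% interval of ± 0.35. Slit3 had 3693, 6124 and 3598 in stimulated samples and 3254, 5206 and 3778 in controls, so that replicate 2 was the highest of each group. Per kilobase Slit3 was above Slit2 in every library, although Slit2 had the higher count in each. The exon length used was 25433 bases for Slit2 and 6067 for Slit3, so this order rests on the lengths. Slit1 had normalized counts of 33, 11 and 25 in stimulated samples and 35, 58 and 28 in controls.

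**Figure D4:**
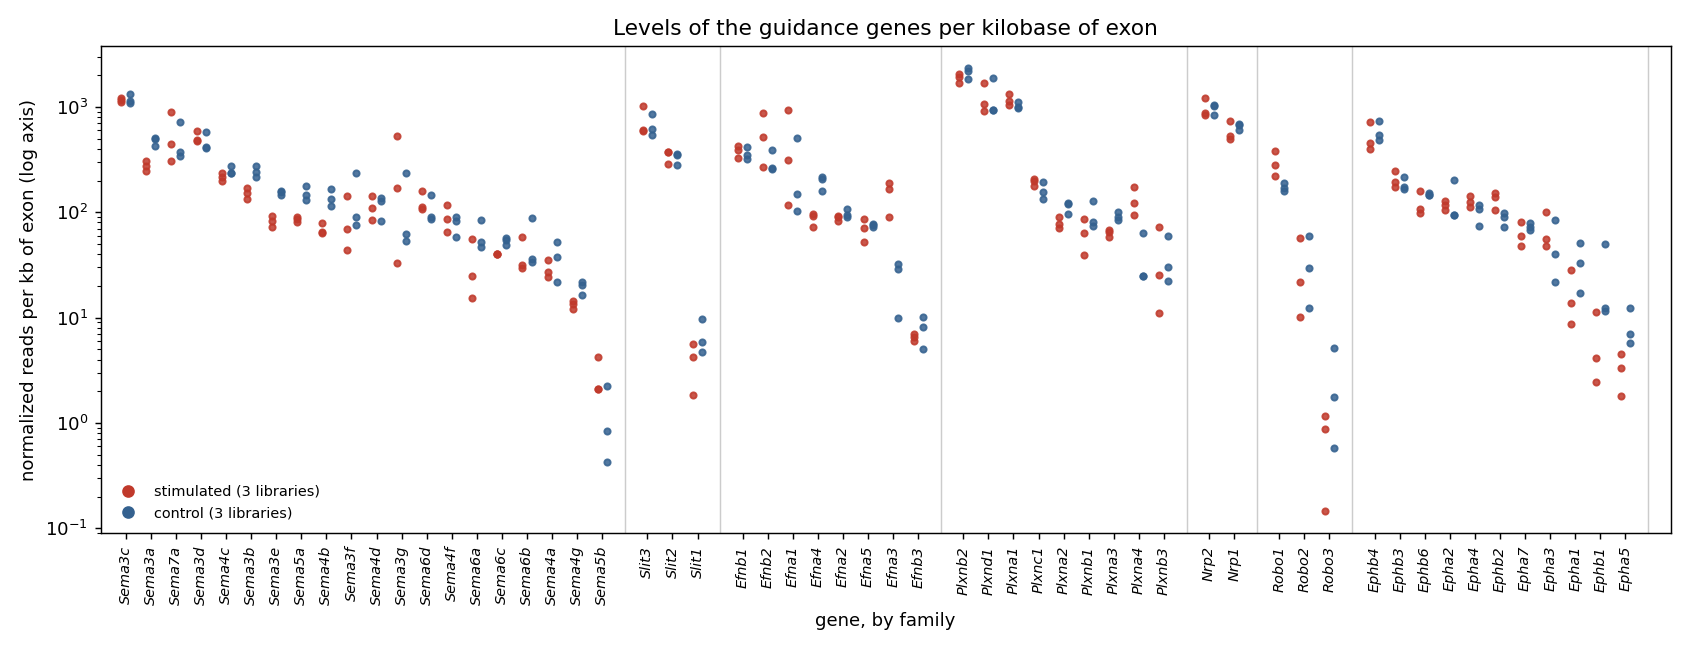
Normalized reads per kilobase of exon (vertical log axis) for the 56 guidance genes (horizontal axis, by family and in order of the control mean), with 1 point per library for stimulated (red) and control (blue) samples. Plxnb2 was the highest by control mean at 2119 per kilobase and Sema5b the lowest; separated red and blue points are seen for Efna3, Efna4 and Plxna4.

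Plexins are the receptors of the semaphorins. Plxna4, known in neurons as a receptor that acts with neuropilin-1 for Sema3a, had 1315, 2468 and 1732 in stimulated samples and 347, 896 and 348 in controls. All stimulated libraries were above all controls, and replicate 2 was the highest of each group. The log2 change was 1.90 ± 0.40 (limma adjusted p = 0.0254), and 1.92, 1.46 and 2.31 in same-numbered pairs 1, 2 and 3. The call was lost without stimulated replicate 2 (adjusted p = 0.0683), stimulated replicate 3 (0.101), control replicate 1 (0.0896) or control replicate 3 (0.0949), and it stood at an adjusted p of 0.000472 with the replicate block and all libraries. Plxna3, the paralog on the X chromosome, had 511, 463 and 529 in stimulated samples and 705, 658 and 787 in controls. It fell by 0.51 on the log2 scale (SE 0.11, limma adjusted p = 0.0269), a call lost without any of the 3 stimulated replicates (adjusted p = 0.0572, 0.0643 and 0.0844), control replicate 1 (0.0924) or control replicate 3 (0.106) and held with the block (0.00498). Plxna4 lies at chr6:32144268-32588192 and Plxna3 at chrX:74329066-74344689.

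Plxna2 had 1204, 1557 and 1320 in stimulated samples and 2110, 1648 and 2046 in controls. The groups did not overlap, but the log2 change of -0.51 passed with the block (limma adjusted p = 0.0357) and not without it (0.0547). Without the block it also passed with equal library totals (0.0156), with upper-quartile factors (0.0351), with a stricter filter on low values (0.0416), and without stimulated replicate 2 (0.0434), control replicate 2 (0.0336) or both (0.0178). Plxna1, the best expressed of the plexin-A genes per kilobase, had a log2 change of 0.17 ± 0.11 with a 95% interval of ± 0.25. It made up 81.1 ± 0.902% of the summed plexin-A level per kilobase in stimulated samples and 81.0 ± 0.996% in controls (SD, n = 3). Plxna4 made up 8.91 ± 1.67% of that sum in stimulated samples and 2.89 ± 1.54% in controls. Its level per kilobase was above those of Plxna2 and Plxna3 in each stimulated library and below both in each control. By count, Plxna4 was above Plxna3 in control replicate 2, at 896 against 658. An opposite-strand gene shares 10.7% of the exon sequence of Plxna1, so its level is uncertain where counting ignored strand.

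Outside the A class, Plxnb2 was the best expressed guidance gene per kilobase and had a log2 change of -0.16 ± 0.12. Plxnd1, the receptor of Sema3e and known from vascular endothelium, had 6657, 12329 and 7744 in stimulated samples and 6805, 13636 and 6779 in controls, with a log2 change of 0.005 ± 0.33. Its levels followed the replicate number rather than the group, being highest in replicate 2 of both. Plxnb1, the receptor of Sema4d, fell with the block (log2 change -0.61 ± 0.15, limma adjusted p = 0.0278, and 0.272 without the block). Plxnc1, the receptor of Sema7a, had a log2 change of 0.29 ± 0.15 (limma adjusted p = 0.259), and Plxnb3 of -0.33 ± 0.68.

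The neuropilins, co-receptors of class 3 semaphorins and of VEGF, showed no called change (0 of 2, also at an unadjusted limma p under 0.05). Nrp1 had 4841, 7109 and 5179 in stimulated samples and 6747, 5949 and 6583 in controls. Its stimulated replicate 2 lay above all controls and the other stimulated libraries below them, and the log2 change was -0.19 ± 0.15. Without both replicate 2 libraries Nrp1 was called lower (-0.41, limma adjusted p = 0.0344). Nrp2 had 10001, 14280 and 10258 in stimulated samples and 9805, 12455 and 12133 in controls, with a log2 change of -0.01 and a 95% interval of ± 0.38.

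Robo1, a Slit receptor at chr16:72308306-73046095, had 3634, 6255 and 4665 in stimulated samples and 2611, 2802 and 3100 in controls. Although the groups did not overlap, the log2 change of 0.74 ± 0.19 passed narrowly (limma adjusted p = 0.046). The call was lost with equal library totals (0.0771), with upper-quartile factors (0.053) and without both replicate 2 libraries (0.108). It was also lost without stimulated replicate 2 (0.0622), stimulated replicate 3 (0.145), control replicate 1 (0.145), control replicate 2 (0.0969) or control replicate 3 (0.105), and it held with the replicate block (0.0077). Robo2 had 171, 972 and 370 in stimulated samples and 210, 1007 and 506 in controls, and its log2 change of -0.27 ± 0.74 was small beside the gap between replicate 2 and the others. Robo3 had 1, 8 and 6 in stimulated samples and 4, 35 and 12 in controls and was not called.

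Eph receptors are the tyrosine kinases that bind ephrins. Of 11 genes, 0 passed the unblocked limma test, and 3 had an unadjusted p under 0.05 (1 higher and 2 lower). At that unadjusted p, 3370 of all 21743 genes tested were higher and 2877 lower. The share of the Eph genes was thus not above that of all genes. With the replicate block, 1 rose and 3 fell. Ephb1 had 17, 79 and 29 in stimulated samples and 80, 352 and 86 in controls. It was lower in all 3 pairs, with log2 changes of -2.17, -2.14 and -1.54, and the log2 change of -1.95 had an SE of 0.73 without the block (limma adjusted p = 0.13) and of 0.21 with it (0.00125). It also passed without both replicate 2 libraries and no block (0.0401). Epha5, at 30, 76 and 56 in stimulated samples and 118, 206 and 96 in controls, did not overlap between groups and fell by 1.38 with the block (limma adjusted p = 0.00841, and 0.0724 without it, or 0.047 without it at equal library totals). Epha1, at 34, 112 and 54 in stimulated samples and 67, 199 and 129 in controls, fell by 1.01 with the block (limma adjusted p = 0.00717, and 0.263 without it). Ephb2 had 1754, 1320 and 1940 in stimulated samples and 1237, 921 and 1132 in controls and rose by 0.60 with the block (limma adjusted p = 0.00298, and 0.0655 without it). Without the block it passed without stimulated replicate 2 (0.0295) or both replicate 2 libraries (0.0278). Ephb4, the receptor of ephrin-B2 known as a marker of veins and the best expressed Eph gene per kilobase, had a log2 change of -0.18 ± 0.25. Epha2, Epha3, Epha4, Epha7, Ephb3 and Ephb6 also passed neither fit, with log2 changes between -0.32 (Ephb6) and 0.62 (Epha3). Ephb6 was called lower without stimulated replicate 1 (-0.53, limma adjusted p = 0.0412).

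Many guidance genes varied with the replicate number in both groups. Replicate 2 was at least 1.5 times the mean of replicates 1 and 3 (each plus 1), in stimulated samples and in controls, for 17 of the 56 genes (30.4%), against 8.10% of all genes tested and 6.6% of those with a mean of at least 50. The 17 were 7 ligand genes (Sema3f, Sema3g, Sema5b, Sema6a, Sema6b, Sema7a and Efna1) and 10 receptor genes (Epha1, Epha3, Epha5, Ephb1, Robo2, Robo3, Plxna4, Plxnb1, Plxnb3 and Plxnd1). For Sema3g the ratio was 5.26 in stimulated samples and 4.07 in controls, and for Ephb1 it was 3.33 in stimulated samples and 4.20 in controls. Efna1 had ratios of 4.34 in stimulated samples and 4.02 in controls. Replicate 2 was also the highest library of each group for 12 of 12 endothelial markers, with a median ratio of 3.65 in stimulated samples and 3.78 in controls. The median ratio of the 5 mesothelial markers was 5.20 in stimulated samples and 3.91 in controls. That of the 8 epithelial markers was 2.07 in stimulated samples and 3.82 in controls. For macrophage markers it was 0.63 in stimulated samples and 1.22 in controls, and for smooth muscle markers 1.65 and 1.06. For fibroblast markers it was 1.34 and 1.24, and for Schwann and neural markers 1.58 and 1.27, in the same order. Replicate 2 led both groups for 5 of the 8 epithelial and 0 of the 8 macrophage markers. The epithelial marker Scgb1a1 had ratios of 0.15 in stimulated samples and 0.77 in controls. Across the 56 genes the ratios of the groups, on the log2 scale, had a Pearson correlation of 0.755 and a Spearman correlation of 0.757, over genes that share the same libraries. Of the 17 genes, only Plxna4 passed the unblocked test, and 8 more passed with the block. With the block, 4 of the 12 endothelial markers fell and 1 rose, and without it 0 passed (0 also at an unadjusted limma p under 0.05). The part of such cells in the calls made with the block was not tested.

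**Figure D5:**
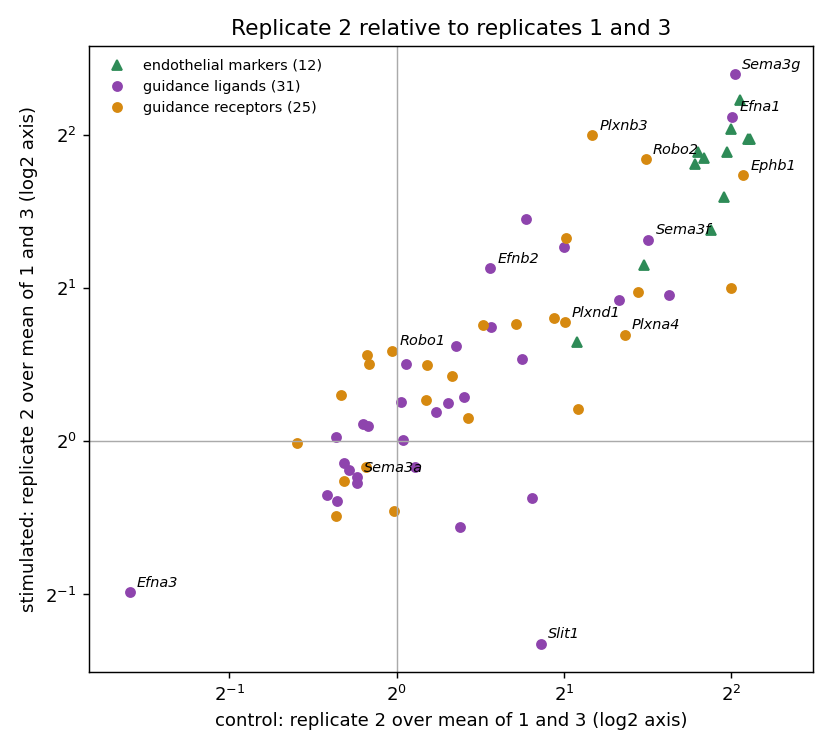
Ratio of replicate 2 to the mean of replicates 1 and 3, each plus 1, in stimulated samples (vertical log2 axis) against controls (horizontal log2 axis) for 31 ligand genes (purple), 25 receptor genes (orange) and 12 endothelial markers (green triangles). All endothelial markers lie in the upper right with Sema3g, Efna1 and Ephb1, while Efna3 lies at the lower left with ratios of 0.50 in stimulated samples and 0.33 in controls.

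Genes that act beside these cues or below them were read out of the same fit. Without the block, 13.4% of all genes tested and 20.0% of those with a mean of at least 50 were called. Among effectors and partners the share was 26.9% for semaphorins and plexins, 38.9% for ephrins and Eph receptors and 30.8% for Slits and Robo receptors. It was 57.1% for the netrin, RGM and Unc5 genes. With the block these shares were 26.8%, 39.8%, 53.8%, 50.0%, 69.2% and 71.4%, in the same order. Of 26 effectors and partners of semaphorins and plexins, 6 rose and 1 fell, and 8 rose and 6 fell with the block, with a median log2 change of -0.03. Mical2, an actin-oxidising enzyme of the family that links plexins to the cytoskeleton, rose to 13494, 14616 and 15162 in stimulated samples, against 5047, 4660 and 5186 in controls (log2 change 1.54 ± 0.08, limma adjusted p = 0.00027). Rap1b, a small GTPase on which plexins act, rose by 0.53 ± 0.08, and Farp2, an exchange factor in semaphorin signalling, by 0.69 ± 0.11, a call lost without stimulated replicate 3 (limma adjusted p = 0.0575). Of 18 effectors and partners of ephrins and Eph receptors, 5 rose and 2 fell, and 6 rose and 3 fell with the block, with a median log2 change of 0.20. Tiam1, an exchange factor for Rac, had 1627, 1893 and 1540 in stimulated samples and 309, 454 and 336 in controls (log2 change 2.21 ± 0.16, limma adjusted p = 0.000832), Ptpn11, the phosphatase SHP2, rose by 0.57 ± 0.08 and Pdlim5, a PDZ and LIM domain protein, by 0.85 ± 0.12.

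Of 13 tested effectors and partners of Slits and Robo receptors, 2 rose and 2 fell, and 4 rose and 5 fell with the block, with a median log2 change of -0.10. Flrt3, a membrane protein that can bind Robo1 and Unc5b, rose to 529 ± 100 in stimulated samples, against 209 ± 38.0 in controls (SD, n = 3, log2 change 1.34 ± 0.20, limma adjusted p = 0.0073). Gpc1, a heparan sulfate proteoglycan that binds Slit2, fell by 0.42 (limma adjusted p = 0.0185), a call lost without stimulated replicate 3 (0.0813), control replicate 1 (0.07) or control replicate 3 (0.0561), and without both replicate 2 libraries (0.054). Enah, an actin regulator, rose by 0.67 (limma adjusted p = 0.0323), a call lost with equal library totals (0.0727), without both replicate 2 libraries (0.0508), and without stimulated replicate 2 (0.0777), stimulated replicate 3 (0.12), control replicate 1 (0.0993) or control replicate 3 (0.101). The netrin, RGM and Unc5 genes, a further guidance system, gave 4 rises and 4 falls among 14 tested, with a median log2 change of 0.18. With the block they gave 5 rises and 5 falls. Unc5b, a netrin receptor, had 9451, 17861 and 13467 in stimulated samples and 2569, 3875 and 2568 in controls. Its log2 change was 2.16 ± 0.26 (limma adjusted p = 0.00363), Ntn4, a netrin, rose by 0.62 ± 0.09, and Rgma, a BMP co-receptor and guidance molecule, fell by 2.96. Other Unc5 genes went the other way: Unc5a and Unc5c were called lower (log2 changes -0.83 and -0.89, limma adjusted p = 0.0117 and 0.0212). Unc5d was not called.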

How the data were processed

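Libraries were stranded and made from total RNA, per the labels' protocols. Trimmomatic 0.38, STAR 2.6.1d, featureCounts 1.6.3, DESeq2 1.18.1 and the builds hg38, GRCh38 and mm10 are named in the submitters' processing notes. For the strand setting and the annotation release, nothing is given in the sources used here. The deposited values are a score, whole numbers that behave as normalized and rounded read counts: 4 of 6 libraries skip whole numbers under 40. Raw depth is therefore unknown, and the count model planned for raw counts was not used.

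Of 21785 gene rows, 21747 matched GENCODE M21 (mm10). Log2(value + 1) of 21743 genes with a mean of at least 1 was fitted by limma 3.58.1 with its trend option (R 4.3.3). Treatment was the only term, there were 4 residual degrees of freedom, and Benjamini-Hochberg adjusted p was read at 0.05. This scale understates changes of low genes. The code was tested on simulated data.

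Pairing was checked on 13185 genes with a mean of 50 or more. After the group means were removed, same-numbered libraries had correlations of 0.747, 0.741 and 0.218. These are not independent, because the deviations within a group are tied to each other. The fit with the replicate number as a block is therefore given beside the main fit, which has no block. The block leaves fewer residual degrees of freedom. What a number stands for is not given in the labels, and control replicate 3 was closer to stimulated replicate 1 (0.287). Other scalings, filters and pseudocounts, the replicate block, the block with equal totals, and fits without single libraries or both replicate 2 libraries were run as alternatives. The text names all guidance genes past the threshold, those called with the block, the best expressed of each family, and up to 3 called genes with the smallest p of each other list; further guidance genes are named because they bear on a family's count and were chosen after their values were seen. Members and lists were chosen with earlier results of these data known.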

Additional observations from a re-analysis of the deposited data

How the results depend on the processing

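With the replicate block, limma called 5837 genes over the whole table, 23 guidance genes, 14 ligands, 9 receptors and 42 effectors and other guidance genes, against 2905, 10, 7, 3 and 26 without it. All 10 guidance genes called without the block were called with it. With equal library totals and the block together, the counts were 6957, 27, 13, 14 and 44. Without both replicate 2 libraries, 6 receptors were called (2 higher and 4 lower), with 2398 genes called over the whole table. Leaving out 1 library at a time gave 917 to 2384 genes over the whole table, 5 to 10 guidance genes, 5 to 8 ligands, 0 to 3 receptors and 13 to 22 effectors and other guidance genes. Of all called genes, 64.5% rose as reported, 51.2% with upper-quartile factors and 33.4% with equal library totals. For the 56 guidance genes and the 12 other genes followed under each alternative, no called change turned its direction. Low members such as Robo3, Sema5b and Slit1 had wide intervals, and the depth of raw reads behind them is unknown.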

Other observations

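Several guidance genes lie on the same chromosome, some with tested coding genes between them, and their changes can be set side by side. Such genes between them numbered 1 for Sema3a and Sema3e, 4 for Sema3e and Sema3c and 2 for Sema3b and Sema3f. On chromosome 5, Sema3a and Sema3e, 0.42 Mb apart, both fell, while Sema3d, 0.54 Mb from Sema3a, and Sema3c, 3.32 Mb from Sema3e, were not called (log2 changes 0.16 and -0.02). On chromosome 9, Sema3b and Sema3f, 72.3 kb apart, were both lower with the replicate block. On chromosome 16, Robo1 rose and its neighbour Robo2, 0.85 Mb away, had a log2 change of -0.27 and was not called. Around the ephrin cluster on chromosome 3, Adam15 had a log2 change of -0.19 (limma adjusted p = 0.359) and Dcst1 of -0.92 (limma adjusted p = 0.0696, and 0.0345 with the replicate block).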
